A study of Mus musculus with 4 samples.

Results

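SOX3 binding was described at 39 genes of fibroblast growth factor (FGF) signalling: 22 ligands, 5 receptors, 10 feedback or target genes and 2 adaptors. The genes were chosen by name, with earlier results of these data known. All but Spry3 of the 40 listed were found among the 22367 protein-coding genes of the GENCODE vM1 annotation on mm9. The data were SOX3 ChIP-seq peaks from 3 biological replicates of neural progenitor (NP) cells, made from R1, a mouse embryonic stem cell line, by 4 days of monolayer culture in N2B27, a serum-free medium that favours neural fate. Chromatin was immunoprecipitated with an antibody raised against human SOX3, and an input library made without antibody, in the same cells, was not analysed here. No other genotype or treatment was compared, and all replicates came from the R1 line. Peak lists hold no expression values, so the NP cell label could not be checked against marker transcripts.

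FGFs are secreted proteins that bind receptor tyrosine kinases on the cell surface, with heparan sulphate or klotho proteins as co-receptors, and activate the RAS and ERK pathway through the adaptor FRS2. Active ERK raises transcription of the ETS factors Etv1, Etv4 and Etv5 and of inhibitors that limit the signal, among them the Sprouty (Spry) and Spred proteins and the ERK phosphatase Dusp6. FGF signalling moves embryonic stem cells towards differentiation and patterns the early neural tube, and SOX3 is a SOXB1 transcription factor of neural progenitors.

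A peak was counted for a gene when it overlapped the gene body or the 50 kb to either side, called the window here. Overlapping peaks of the replicates were merged, and a merged region that held a peak of each replicate is called a 3-replicate region. Replicate 1 had 18816 peaks, replicate 2 had 8096 and replicate 3 had 40543. Each peak carried a score, 10 times the negative log10 of its MACS p-value, with 50 as the lowest value listed. Scores depend on library depth, which the lists do not give, so they were read as percentiles within a list, where 100 is the top. The replicates did not stand in equal relation to each other. Peaks of replicates 2 and 3 began at the same base in 35.7% of all 5358 3-replicate regions, whereas those of replicates 1 and 3 did so in 1.51%. In member windows the shares were 16 of 41 (39%) and 0 of 41. What this sharing contributes to the overlap was not tested, and the main counts are also given without replicate 2 or replicate 3 in the closing section.

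The regions on which the results turn are shown first. They are the strongest region of a feedback inhibitor (Spry2), the regions at the starts of Spred1, Spred2, Dusp6, Etv1 and Fgfr2, and the strongest regions of Fgfr3 and Fgf10. Each sequence is up to 300 bases around the middle of the region, from the mm9 reference, plus strand, without any transcribed untranslated sequence. Capitals mark exact matches, on either strand, to the SOX words AACAAA or AACAAT and GACAAA or GACAAT.
Spry2, chr14:106319866-106320165: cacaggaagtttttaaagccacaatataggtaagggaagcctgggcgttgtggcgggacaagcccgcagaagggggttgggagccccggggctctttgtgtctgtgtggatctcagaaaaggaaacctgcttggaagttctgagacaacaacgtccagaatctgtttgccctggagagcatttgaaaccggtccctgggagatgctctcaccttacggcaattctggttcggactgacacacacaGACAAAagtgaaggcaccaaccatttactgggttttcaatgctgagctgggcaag
Spred1, chr2:116945580-116945879: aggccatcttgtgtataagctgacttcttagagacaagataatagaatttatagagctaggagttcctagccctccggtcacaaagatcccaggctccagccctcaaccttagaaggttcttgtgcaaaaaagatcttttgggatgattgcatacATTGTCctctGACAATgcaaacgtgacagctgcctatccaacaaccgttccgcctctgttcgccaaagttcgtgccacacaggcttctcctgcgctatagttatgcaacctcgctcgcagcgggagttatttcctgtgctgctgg
Spred2, chr11:19823990-19824289: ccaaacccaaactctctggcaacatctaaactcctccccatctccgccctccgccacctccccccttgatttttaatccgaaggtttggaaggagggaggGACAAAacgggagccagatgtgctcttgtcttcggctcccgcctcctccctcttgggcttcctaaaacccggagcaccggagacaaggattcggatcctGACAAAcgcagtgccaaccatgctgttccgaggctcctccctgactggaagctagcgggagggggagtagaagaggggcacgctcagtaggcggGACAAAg
Dusp6, chr10:98725640-98725864: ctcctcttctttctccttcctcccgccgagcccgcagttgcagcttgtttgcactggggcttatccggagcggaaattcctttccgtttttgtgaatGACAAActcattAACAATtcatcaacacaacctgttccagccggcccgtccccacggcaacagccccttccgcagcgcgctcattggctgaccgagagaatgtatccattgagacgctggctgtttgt
Etv1, chr12:39505060-39505359: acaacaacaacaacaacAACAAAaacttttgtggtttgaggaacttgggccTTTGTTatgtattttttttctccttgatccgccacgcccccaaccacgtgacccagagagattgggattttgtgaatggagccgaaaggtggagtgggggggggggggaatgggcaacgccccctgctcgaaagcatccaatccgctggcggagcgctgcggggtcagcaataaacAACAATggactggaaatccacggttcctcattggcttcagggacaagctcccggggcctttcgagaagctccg
Fgfr2, chr7:137408196-137408495: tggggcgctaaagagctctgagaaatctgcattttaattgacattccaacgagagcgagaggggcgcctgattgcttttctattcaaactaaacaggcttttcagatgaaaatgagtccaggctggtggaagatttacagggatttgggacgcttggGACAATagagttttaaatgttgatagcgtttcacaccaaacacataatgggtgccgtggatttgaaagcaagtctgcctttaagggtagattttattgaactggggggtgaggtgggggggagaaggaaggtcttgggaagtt
Fgfr3, chr5:34048044-34048343: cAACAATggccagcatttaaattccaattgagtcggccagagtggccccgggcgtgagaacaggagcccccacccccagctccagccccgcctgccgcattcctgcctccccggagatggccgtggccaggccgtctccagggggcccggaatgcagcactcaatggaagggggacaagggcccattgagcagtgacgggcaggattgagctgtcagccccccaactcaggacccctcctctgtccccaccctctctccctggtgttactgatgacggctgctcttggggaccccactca
Fgf10, chr13:119547831-119548130: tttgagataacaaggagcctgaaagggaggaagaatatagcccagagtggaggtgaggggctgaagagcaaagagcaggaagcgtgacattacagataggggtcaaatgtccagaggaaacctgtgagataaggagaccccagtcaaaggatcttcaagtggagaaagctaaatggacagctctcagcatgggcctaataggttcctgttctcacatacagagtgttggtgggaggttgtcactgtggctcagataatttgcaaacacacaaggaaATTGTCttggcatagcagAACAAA
Each of the 8 windows shown, which are a selection, held at least 1 SOX word. In the central 200 bases the Spry2, Fgfr3 and Fgf10 regions held neither SOX word. The Spry4 promoter region, which is not shown, held neither SOX word over its whole width. In windows of 300 bases, either SOX word was present in 73.2% of the 41 member regions and in 73.6% of all 3-replicate regions, against 45.1% and 57.7% of windows 2000 bp to each side. The shares of member regions and of all regions were close. A match is a description of the sequence, not a measured site.

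SOX3 peaks of all 3 replicates were found at 20 of the 39 genes. Among all protein-coding genes the share was 28.8%. By role, 8 of 10 feedback or target genes, 3 of 5 receptors, 9 of 22 ligands and 0 of 2 adaptors had a 3-replicate region. At least 2 such regions were present at 8 genes, 6 of them feedback or target genes (Spry2, Spry4, Spred1, Dusp6, Etv4 and Etv5) and the others Fgf14 and Fgfr2, against 8.51% of all genes. Within 2000 bp of a start of their own, 6 genes had a 3-replicate region, namely Spry4, Spred1, Spred2, Dusp6, Etv1 and Fgfr2, against 4.5% of all genes. No ligand had one there. With a p-value of 1e-10 or less in each peak, 3 of the 6 remained (Fgfr2, Spry4 and Spred1), against 1.85% of all genes.

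Longer windows catch more regions by length alone, so the counts were also set beside genes of like window size. In windows up to 120 kb, 11 of 21 members had a 3-replicate region, against 25.5% of all genes. Among these 11, Fgf3, Fgf4 and Fgf15 shared 1 region. From 120 to 200 kb the count was 6 of 13, against 29.3%, and above 200 kb it was 3 of 5, against 44.8%. The count lay furthest above the background in the shortest windows, which hold Spry2, Spry4, Dusp6 and Etv4 as well as Fgf3, Fgf4, Fgf8, Fgf11, Fgf15, Fgf17 and Fgfr3. Of the other 19 genes, 7 had a region in 2 replicates at best, 11 in 1 replicate, and Fgf16 had no peak.

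**Figure D1:**
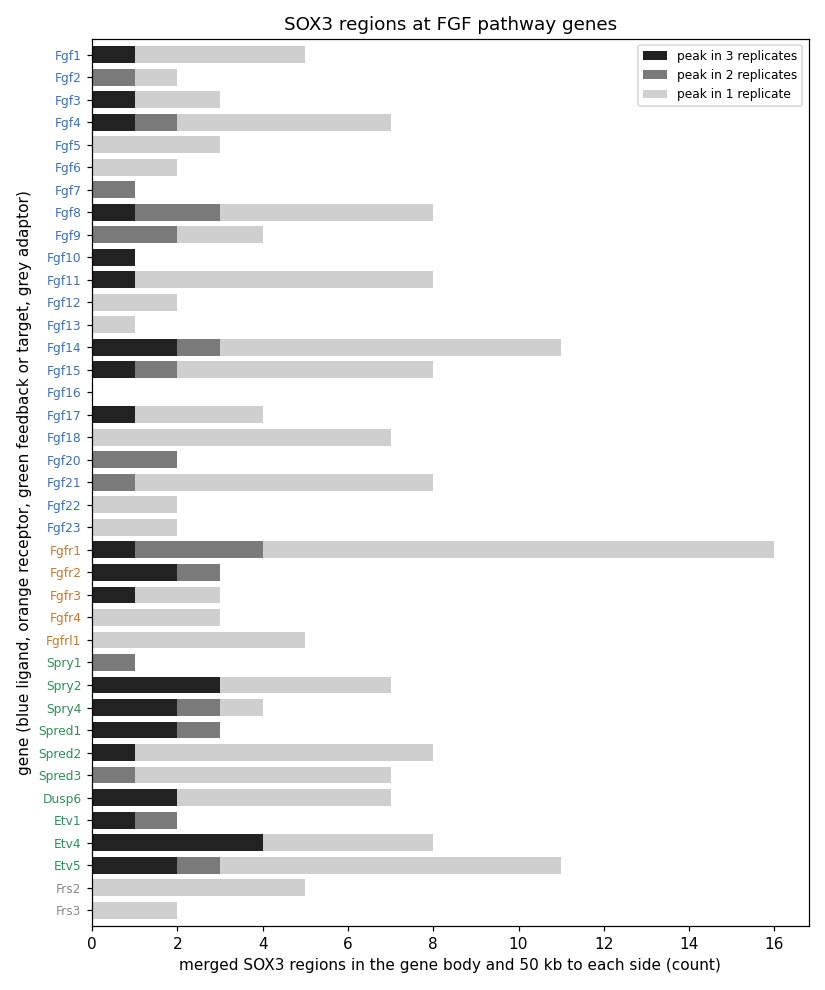
Bars give, for each of the 39 genes, the number of merged SOX3 regions in the window, stacked by how many replicates had a peak (black 3, dark grey 2, light grey 1). Gene names are coloured by role, Fgfr2 is drawn with its 204.3 kb window, Etv4 has the most 3-replicate regions (4), and Fgf16 has none of any kind.

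The gene model of Fgfr2 spans 3009 kb, because 1 annotated transcript (Fgfr2-007) starts far upstream of all others. Its window held 14 3-replicate regions, 12 of which lay outside the 204.3 kb window of the remaining transcripts. With the shorter model the member windows held 29 3-replicate regions in place of 41, and the main values are given for both.

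The feedback inhibitors held the strongest region of the set. Spry2, an intracellular inhibitor of receptor tyrosine kinase signalling, had 5, 4 and 5 peaks in replicates 1, 2 and 3. A region 24.0 kb upstream of its start (chr14:106319514-106320519), in intergenic sequence, had scores of 2777.88, 1326.8 and 2561.23. These were ranks 13, 33 and 37 of the respective lists, so each replicate placed the region near its top. Of the sequences shown above, this is the Spry2 window. A smaller region 26.3 kb upstream (chr14:106322110-106322555) scored 317.38, 80.57 and 316.31, and another, 45.3 kb downstream of the start (chr14:106250527-106251034), scored 536.55, 215.94 and 371.3. For all of these Spry2 was the nearest gene, and none lay at its promoter. With windows of 20 kb Spry2 had no 3-replicate region.

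Spry4, another Sprouty inhibitor, had a region centred 129.5 bp upstream of its start (chr18:38760838-38761265) with scores of 247.87, 150.68 and 202.14. A second region, 27.4 kb from the start and beyond the 3' end of the gene (chr18:38733333-38733762), scored 166.53, 142.4 and 261.09. Both lay above percentile 76 of every list. Spry1, by contrast, had no peak in replicate 2, and its region 27.0 kb downstream of the start scored 60.62 in replicate 1 and 54.12 in replicate 3, close to the lowest score listed. The Sprouty genes therefore differed among themselves, from no common region (Spry1) to 3 (Spry2).

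The Spred proteins block activation of RAF. Spred1 had a region 1380 bp upstream of its start (chr2:116945472-116945988) with scores of 259.83, 136.49 and 279.06, at percentiles 89.8, 75.3 and 96.0. Its sequence above holds 2 GACAAT words, on opposite strands. Another region in the Spred1 window (chr2:117036421-117036836) was nearer to Fam98b and scored 171.05, 55.15 and 122.94. Spred2 had a region 238.5 bp upstream of its start (chr11:19823944-19824335) with scores of 53.98, 73.41 and 178.86. That region was weak in replicate 1, at percentile 14.8, and strong in replicate 3, at percentile 92.3, and it was lost with a p-value of 1e-10 or less, with equal numbers of peaks and with a reciprocal overlap of 50%. Spred3 had a promoter peak in replicate 1 (152.73) and replicate 3 (92.3) and none in replicate 2.

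Dusp6, the cytoplasmic phosphatase that inactivates ERK, had regions on both sides of its start. The first, centred 74.5 bp upstream (chr10:98725627-98725954), scored 113.06, 85.75 and 111.62. The second, in intron 2 of 3 and 2328 bp downstream (chr10:98728046-98728340), scored 160.46, 107.43 and 143.66. Both were of middle rank in replicate 2, at percentiles 52.9 and 64.7, and higher in the other lists. All 3-replicate regions also had their lowest median percentile in replicate 2 (82.6, 65.1 and 92.8 in replicates 1, 2 and 3). In both Dusp6 regions, the peaks of replicates 2 and 3 began at the same base.

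The ETS factors of the PEA3 group, Etv1, Etv4 and Etv5, are transcribed in response to FGF. Etv1 had a region 756.5 bp upstream of its start (chr12:39504913-39505508) with scores of 369.06, 59.91 and 142.11, at percentiles 94.0, 26.2 and 89.4. The Etv1 region was above the median percentile of all 3-replicate regions in replicate 1 (82.6). It was below that median in replicate 2 (65.1) and replicate 3 (92.8). A further Etv1 region 66.5 bp past the start had a peak in replicate 1 (72.18) and replicate 3 (60.62) only. Etv5 had a region in intron 5 of 12 (chr16:22428876-22429367) that scored 223.81, 94.53 and 143.22, and 1 at 2662 bp upstream of its start (chr16:22442263-22442645) that scored 130.64, 93.53 and 138.99. Its promoter, 123 bp upstream, had peaks in replicate 1 (99.37) and replicate 3 (53.77) and none in replicate 2.

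Etv4 had 4 regions, the most of any member after Fgfr2 with its long model. A region in intron 8 of 12 (chr11:101633753-101634086) scored 123.78, 79.14 and 134.32, and a region 2336 bp upstream of the start (chr11:101648916-101649126) scored 121.04, 57.18 and 68.62. The latter held the POU octamer (ATGCAAAT or ATGCTAAT, on either strand) and was of low rank in replicate 2, at percentile 20.4. The remaining regions belonged by distance to Dhx8, a neighbouring gene for an RNA helicase. The region at the start of Dhx8 (chr11:101594100-101594431) scored 184.15, 70.78 and 111.21. The region in a Dhx8 intron (chr11:101601404-101601855) scored 137.93, 135.75 and 156.25, and up to 70.22% of the 50-base sequences of its peaks occur more than once in the genome, so its reads could have been placed elsewhere.

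**Figure D2:**
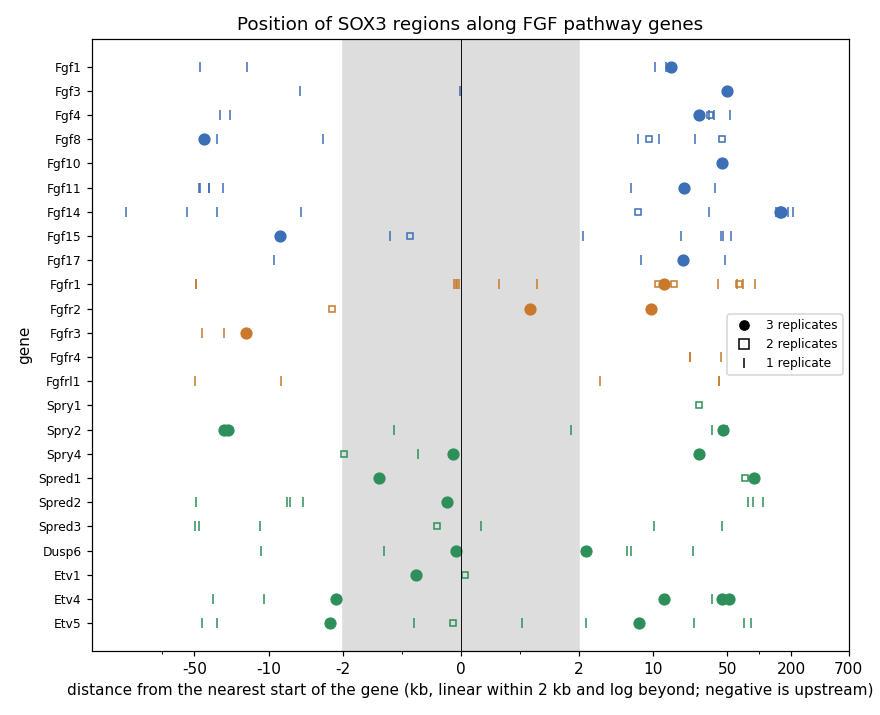
Each row is a gene and each mark a merged region, placed by the distance of its middle from the nearest start of that gene in kb (negative is upstream, linear within 2 kb and log beyond, grey band within 2 kb). Filled circles are regions of 3 replicates, open squares of 2 and ticks of 1. Circles lie in the grey band for Fgfr2, Spry4, Spred1, Spred2, Dusp6 and Etv1 and for no ligand.

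Among the receptors, Fgfr1, Fgfr2 and Fgfr3 had 3-replicate regions. Fgfr1, the main FGF receptor of early neural tissue, had 7, 3 and 11 peaks, and a region in intron 2 of 17 scored 611.79, 348.06 and 471.61. Its ranks were 441, 485 and 802. Fgfr3 had a region 16.2 kb upstream of its start, in intergenic sequence (chr5:34047875-34048514), that scored 485.88, 356.6 and 521.98, at ranks 703, 461 and 677. After the Spry2 and Fgf1 regions, these had the highest values, among the 29 regions of the shorter Fgfr2 model, when each region was read by its lowest percentile of the 3 lists, at 94.0 for Fgfr1 and 94.3 for Fgfr3. The promoter regions of the feedback genes were lower by this measure.

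Fgfr2 had a region 1180.5 bp past its start, in intron 1 (chr7:137408121-137408572), with scores of 208.69, 107.38 and 120.11. A region in intron 2 (chr7:137395507-137396002) scored 238.31, 144.41 and 183.67. Both came from the shorter model and had Fgfr2 as the nearest gene. Fgfr4 had 3 peaks in replicate 1 and none in the other replicates. Fgfrl1, a receptor-like protein without a kinase domain, had 2 peaks in replicate 1, none in replicate 2 and 3 in replicate 3, with no overlap among them.

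Among the ligands, the strongest region was in Fgf1, a ligand of broad receptor specificity. It lay in intron 1 of 3, 14.7 kb from the start (chr18:39063337-39064026), with scores of 1444.9, 718.53 and 1406.16 and ranks 69, 99 and 98. Fgf10, a ligand that signals mainly from mesenchyme to epithelium, had a region in intron 1 of 2 (chr13:119547679-119548283) with scores of 200.2, 172.25 and 329.85. Fgf14 had neighbouring regions in intron 3 of 4, which scored 167.21, 81 and 135.72 (chr14:124432474-124432788) and 401.6, 112.66 and 266.3 (chr14:124435920-124436389). Fgf14 belongs with Fgf11, Fgf12 and Fgf13 to the FGF homologous factors, which stay in the cell and bind sodium channels. Fgf1, Fgf10 and Fgf14 were the ligands with a 3-replicate region inside the gene.

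For the other ligands the region lay outside the gene, and for Fgf8, Fgf11 and Fgf17 it lay at another gene. Fgf3, Fgf4 and Fgf15, neighbours on chromosome 7, shared 1 region (chr7:152074553-152074818), so their count of 3 genes rests on the same peaks. It lay 7.75 kb upstream of Fgf15, a ligand of the developing brain and gut, and scored 57.86, 167.07 and 266.56, at percentile 25.2 in replicate 1 and 95.7 in replicate 3. Nearer to Fgf15, 856 bp upstream, a peak was present in replicate 1 (226.01) and replicate 3 (68.37) but not in replicate 2. Fgf8, an organiser signal of the midbrain and forebrain, had a region 40.6 kb upstream (chr19:45857641-45858400) with scores of 153.45, 218.23 and 253.98, which was centred 10.5 bp from the start of Mgea5. A region 9193 bp downstream of the Fgf8 start was weaker, with 66.11 in replicate 2, 70.78 in replicate 3 and no peak in replicate 1.

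The Fgf11 region (chr11:69595319-69595601) was exonic in Zbtb4 and scored 105.73, 96.4 and 163.44. The Fgf17 region (chr14:71022917-71023228) lay in an intron of Epb4.9 and scored 125.17, 98.57 and 144.29. In its central 200 bases it held the joined SOX/POU word, which runs a SOX site into a POU site and shares letters with the octamer, and no other 3-replicate region of a member did. By the nearest start, Fgf3, Fgf4, Fgf8, Fgf11, Fgf14 and Fgf17 lost their regions to other genes, Fgf9 and Fgf20 gained regions beyond the window, and the ligands with a 3-replicate region numbered 5 in place of 9.

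Regions of 2 replicates were the best found at Fgf2, Fgf7, Fgf9, Fgf20 and Fgf21. The Fgf2 region, in intron 1 of 3, had scores of 59.58 in replicate 2 and 99.65 in replicate 3, and up to 100% of its 50-base sequences occur more than once in the genome. For the 2 Fgf9 regions the shares were 85.33% and 75.18%. Fgf5, Fgf6, Fgf12, Fgf13, Fgf18, Fgf22 and Fgf23 had no region in more than 1 replicate. Fgf18 had the most peaks of these, with 3 in replicate 1, none in replicate 2 and 4 in replicate 3. The adaptors were alike in this respect, as Frs2 had 2, 0 and 3 peaks and Frs3 had 2, 0 and 0.

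**Figure D3:**
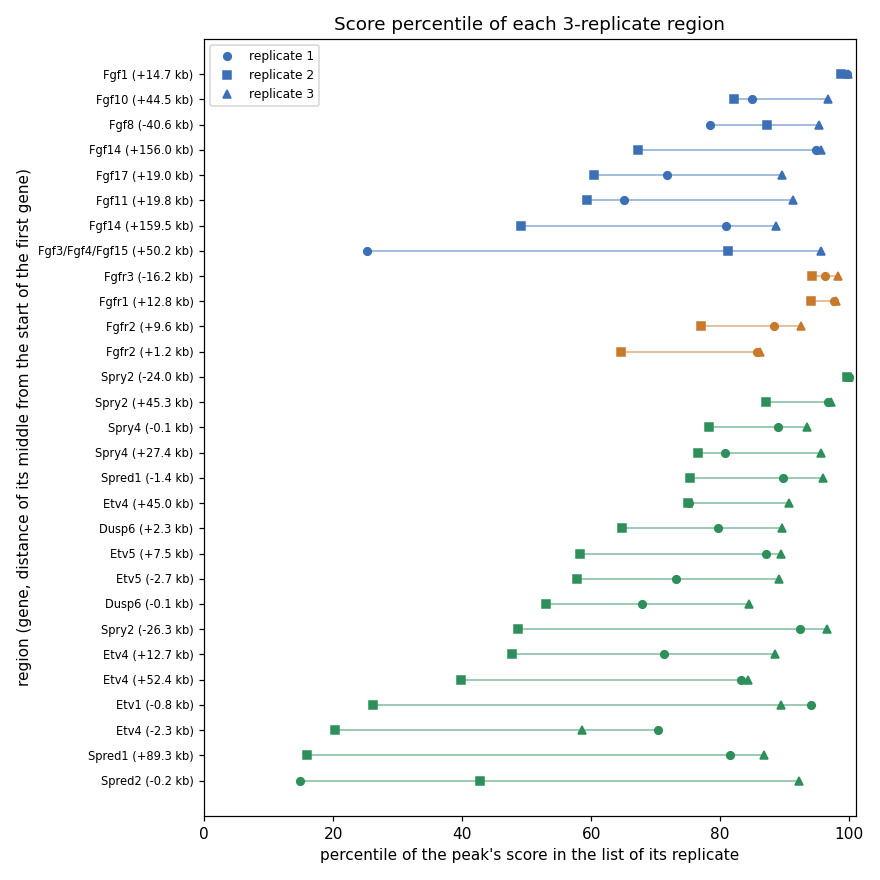
Each row is 1 of 29 3-replicate regions, labelled by gene and by its distance from the gene's start, and the points give the percentile of its score in replicates 1 (circle), 2 (square) and 3 (triangle), coloured blue for ligands, orange for receptors and green for feedback or target genes. Fgf1, Fgfr1, Fgfr3 and the Spry2 region at 24.0 kb lie to the right in all replicates, whereas Spred2 reaches down to percentile 14.8.

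The roles were compared by peaks per Mb of their windows in each replicate. Feedback or target genes had 28.6, 13.9 and 30.1 peaks per Mb in replicates 1, 2 and 3, receptors had 14.1, 6.09 and 18.3, and ligands had 8.92, 4.21 and 14.1. All protein-coding windows together had 9, 3.72 and 17.4. Feedback genes were above all genes, receptors and ligands in each replicate. The place of the ligands depended on their longest windows. Fgf12, Fgf13 and Fgf14, with windows over 300 kb, made up 1.79 of the 4.037 Mb and held 3, 4 and 12 of the 36, 17 and 57 ligand peaks. Without them the ligands had 14.7, 5.79 and 20 peaks per Mb, above all genes in each replicate and above receptors in replicates 1 and 3. In that comparison the receptors and all genes kept their own windows over 300 kb. With the shorter Fgfr2 model, receptors had 25.3, 8.44 and 26.7 peaks per Mb, and feedback genes exceeded them 1.13, 1.65 and 1.12 times.

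Feedback or target genes exceeded ligands by 15.1 ± 5.03 peaks per Mb (SD, n = 3), or 3.21, 3.31 and 2.13 times, and were higher in 3 of 3 replicates. Receptors exceeded ligands by 3.73 ± 1.69 (SD, n = 3) and were exceeded by feedback genes by 11.4 ± 3.35. With the shorter Fgfr2 model these differences were 11.1 ± 6.23 and 4.03 ± 1.26. Without the 3 longest ligand windows, a setting chosen after the data were seen, feedback genes exceeded ligands by 10.7 ± 2.94, or 1.95, 2.41 and 1.5 times, whereas receptors minus ligands was -0.683 ± 1.04, or 6.67 ± 3.99 with the shorter Fgfr2 model. Each difference but that of -0.683 was larger than its SD. Peaks per Mb were not scaled for the unequal lists, so each SD also holds differences in list length. Each of the 3 comparisons with all ligands gave p = 0.25 by a two-sided exact permutation test of signs over the replicates, also after Benjamini-Hochberg adjustment, which is the smallest value that 3 replicates allow, so none can pass a threshold of 0.05. Without the 3 longest ligand windows the same exact test gave p = 0.5 for receptors against ligands, and p = 0.25 with the shorter Fgfr2 model or for feedback genes. The SD and the test treat the replicates as independent, which was not tested for replicates 2 and 3 with their shared peak starts. For 3-replicate regions alone the densities were 12.5 per Mb at feedback or target genes, 4.43 at receptors (5.63 with the shorter model), 1.98 at ligands and 2.49 over all genes. Without replicate 1 the ratio of feedback genes to ligands fell from 6.29 to 3.33, and that of receptors to ligands from 2.23 to 1.40.

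**Figure D4:**
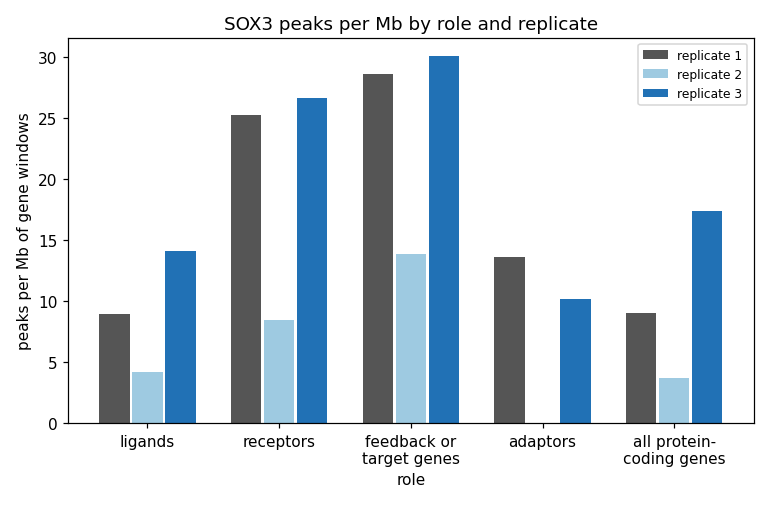
Bars give SOX3 peaks per Mb of gene windows for each role and for all protein-coding genes, with 1 bar per replicate (dark grey 1, light blue 2, blue 3) and the shorter Fgfr2 model. Feedback or target genes (28.6, 13.9 and 30.1) are above ligands (8.92, 4.21 and 14.1) in each replicate, and adaptors have no peak in replicate 2.

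Genes with a peak were also counted in single lists. Replicate 2, the shortest list, had a peak in the window of 8 of 10 feedback or target genes, 3 of 5 receptors and 13 of 22 ligands, and of 38.3% of all genes. In replicate 1 the counts were 10, 5 and 15, against 67.7% of all genes. In replicate 3 they were 10, 4 and 21, against 84.6%, so ligands were above receptors there (95.5% and 80%). Peaks within 2000 bp of an own start were present at 8, 5 and 7 of the 10 feedback or target genes in replicates 1, 2 and 3, against 19.7%, 5.8% and 17.4% of all genes. At the 22 ligands they numbered 4 (Fgf3, Fgf5, Fgf9 and Fgf15), 0 and 1 (Fgf15). Without replicate 2, 9 members had a common promoter region, since Fgf15, Spred3 and Etv5 joined, against 7.37% of all genes.

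By location, 9 of the 41 member regions were at the promoter of a protein-coding gene (22%, 95% Wilson interval 12 to 36.7%), 2 exonic, 21 intronic (51.2%, 36.5 to 65.7%) and 9 intergenic (22%, 12 to 36.7%). Of all 3-replicate regions, 18% were at promoters, 29% intronic and 51.7% intergenic. With the shorter Fgfr2 model, 8 of 29 were at promoters (27.6%), 11 intronic (37.9%, 22.7 to 56%) and 9 intergenic (31%, 17.3 to 49.2%), so the intronic share depended on the model used. Of the 17 regions of feedback or target genes, 6 were at promoters, 1 of them that of Dhx8, 4 were intronic and 7 intergenic. Of the 8 ligand regions, 5 were intronic and 1 was at a promoter, that of Mgea5. With so few regions the Wilson intervals of these shares, which cover counting error only, overlap between the roles, and the difference was not tested.

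Score percentiles did not set the member regions apart. Their medians in replicates 1, 2 and 3 were 83.1, 64.7 and 92.6, beside 82.6, 65.1 and 92.8 for all 3-replicate regions. The feedback or target genes, which had the most regions per Mb, had medians of 81.5, 57.8 and 89.5 over 17 regions. The 4 receptor regions of the shorter model had 92.3, 85.5 and 95.3, and the 8 ligand regions 79.6, 74.2 and 95.5.

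In windows of 200 bases, AACAAA or AACAAT was present in 22 of 41 member regions (53.7%, 38.7 to 67.9%) and in 26.8% of windows 2000 bp to each side (18.4 to 37.3%). Over all 3-replicate regions the shares were 47.9% and 31.7%. GACAAA or GACAAT was present in 12 of 41 (29.3%, 17.6 to 44.5%), against 14.6% of flanking windows, with 33.2% and 19.2% over all regions, and in 10 of 29 (34.5%) with the shorter Fgfr2 model. The POU octamer was in 3 of 41 (7.32%), against 8.9% of all regions, and the joined SOX/POU word, present in 6.46% of all regions, was in 1 of 41. Of the member regions, 3 of 41 (7.32%) had a peak that was mostly multi-copy, meaning that over 50% of its 50-base sequences occur more than once in the genome, against 16.9% of all 3-replicate regions, and 1 of 29 (3.45%) with the shorter Fgfr2 model.

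Other genes of the pathway were counted from a list of 59 co-receptors, heparan sulphate enzymes, signal transducers, phosphatases and ETS or immediate early genes. Of these, 23 (39%) had a 3-replicate region, against 28.8% of all genes, and 5, against 4.5% of all genes, had 1 within 2000 bp of their own start: Map2k2, Fgfbp1, Il17rd, Cnpy1 and Dusp5. The list was not split by window length. Its windows reached 382.1 kb, and above 200 kb the share of all genes was 44.8%. Il17rd, also known as Sef and a feedback inhibitor of FGF signalling, had 3 regions. Sulf1, which removes sulphate from heparan sulphate at the cell surface, had 6, the most in the list, and Hs6st1, which adds it, had 4. Among the genes that link the activated receptor to RAS, Gab1, Shc1, Shc4 and Ptpn11 had 1 region each, and Grb2, Sos1, Sos2, Shc2 and Shc3 had none.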

How the data were processed

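SOX3 ChIP-seq of NP cells was available as 1 peak list per replicate, for 3 replicates. The authors aligned reads to mm9 with Bowtie (version 1.0.0 in the submitters' processing notes) and called peaks per replicate with MACS against input at a p-value of 1e-05. The deposited score of each peak multiplies −log10 of its MACS p-value by 10. No normalization between replicates is given in the sources used here. Depth is unknown, since the lists give no read counts. Genes came from GENCODE vM1 on the NCBIM37 reference, the same assembly as mm9. Peaks overlapping by at least 1 bp were merged. Promoters were within 2000 bp of a start, and Wilson intervals cover counting error only. A percentile is the share of the list with a lower score, with ties shared. The members and lists were chosen with earlier results of these data known. The genes named were all members, and pathway genes with a promoter region or the most regions. The genes that link receptors to RAS were chosen after their values were seen. Merging, windows and word counts were tested on simulated data. Python 3.11.15, numpy 2.4.6, scipy 1.17.1, numba 0.67.0 and pysam 0.24.0 were used. Some items of the pathway are not reported here. The closing section gives most of the alternatives tried. Of the others, promoter limits of 1000 bp and 5000 bp put 17.07% and 34.15% of member regions at promoters. Counting the common stretch of the 3 replicates gave 45 member regions.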

Additional observations from a re-analysis of the deposited data

How the results depend on the processing

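Neither ratio of common regions per Mb between roles changed direction under the alternatives for which it was computed. These leave out assignment by the nearest start. Peaks per Mb did change direction for receptors against ligands without the 3 ligand windows over 300 kb. The difference was then -0.683, with receptors higher in 1 of 3 replicates, and 6.67 with the shorter Fgfr2 model. With a p-value of 1e-10 or less in each peak, 12 members kept a 3-replicate region, of which 4 were ligands and 5 feedback or target genes. Under that threshold the member windows held 21 regions, 13 other pathway genes had a region, and the share of all genes was 15.25%. Fgf3, Fgf4, Fgf11, Fgf15, Fgf17, Spred2, Etv1 and Etv5 were lost there. By the nearest start 5 ligands had a region, with 16.59% of all genes. The share of all genes was 27.3% with a reciprocal overlap of 50%, 21.91% with equal numbers of peaks, 18.5% with windows of 20 kb, 42.18% with windows of 100 kb and 24.98% with mostly multi-copy peaks left out, a setting chosen after the data were seen. With each replicate left out in turn it ranged from 29.4% to 39.37%. The ratio of regions per Mb at feedback or target genes to ligands, 6.29, was 3.88 with windows of 100 kb, 4.67 without the 3 ligand windows over 300 kb, and ranged from 3.33 to 6.29 with a replicate left out. That of receptors to ligands, 2.23, ranged from 1.40 to 2.44 with a replicate left out and was 1.66 without those windows and 2.84 with the shorter Fgfr2 model. With equal numbers of peaks 16 members remained, without Fgf3, Fgf4, Fgf15 and Spred2, and with windows of 20 kb 16 remained, without Fgf3, Fgf4, Fgf8 and Spry2. Leaving out replicate 1 added Fgf2, Fgf9 and Fgf20, and leaving out replicate 2 added Fgf7, Fgf21, Spry1 and Spred3, whereas leaving out replicate 3 changed no member. Without replicate 2 and without replicate 3, respectively, the member windows held 57 and 42 common regions, 24.56% and 21.43% of them at promoters and 49.12% and 57.14% with AACAAA or AACAAT, and 29 and 24 other pathway genes had a region. The causes of these moves were not tested, beyond the fewer peaks or shorter windows that a setting has by construction. The shorter Fgfr2 model was also chosen after the data were seen. Only 1 group of samples had peak lists, so no replicate block was fitted, and roles were compared within each replicate. The unknown depth limits comparison of scores between lists, and a region absent from replicate 2, the shortest list, cannot be read as unbound.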
